A study of Homo sapiens with 9 samples.

Results

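The genes examined here were 8 that make plasmalogens or build the peroxisome in which their synthesis starts. AGPS, GNPAT, FAR1, FAR2 and TMEM189 encode enzymes of ether lipid synthesis, and PEX3, PEX10 and PEX19 encode peroxins, the proteins that assemble peroxisomes and bring other proteins into them. They were chosen by name, from what is known of the pathway, though with earlier results of these data known. Each matched 1 of the 58735 genes listed in the files. All 8 had enough counts to be among the 16188 genes tested.

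RNA was sequenced from MDA-MB-231, an established human triple-negative breast cancer (TNBC) cell line, in 9 libraries of 3 conditions with 3 libraries each. Vehicle-treated cells had received DMSO. Erastin-R cells were treated with erastin and RSL3-R cells with RSL3, and per the study both were the cells that survived increased amounts of the drug. All 3 conditions were the same line, without a genetic change named in the labels, and nothing says that the libraries of a condition came from separate cultures, so the p values measure the spread between these libraries, which may be technical. Erastin blocks the cystine importer that feeds glutathione synthesis, and RSL3 blocks GPX4, the enzyme that uses glutathione to reduce lipid peroxides. Both induce ferroptosis, a cell death driven by lipid peroxidation, and the comparisons ask how RNA levels differed between the survivors and vehicle-treated cells and between both kinds of survivors.

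Plasmalogens are phospholipids that carry a fatty chain through a vinyl ether bond and often a polyunsaturated fatty acid beside it. Their synthesis begins inside the peroxisome, where GNPAT acylates dihydroxyacetone phosphate and AGPS exchanges the acyl chain for a fatty alcohol, which FAR1 or FAR2 has made. The later steps run in the endoplasmic reticulum, where TMEM189 introduces the vinyl ether bond. Polyunsaturated ether phospholipids are known substrates of the lipid peroxidation that drives ferroptosis, and cells without working peroxisomes make few of them.

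GNPAT and AGPS reach the peroxisome through short signals in their own sequence. GNPAT ends in a C-terminal signal that the receptor PEX5 binds, and AGPS has an N-terminal signal that the receptor PEX7 binds. PEX19, which carries membrane proteins to the peroxisome, ends in a farnesylation box. The coding bases are shown because the signals of GNPAT and AGPS tie these enzymes to the receptors whose RNA is given with the other peroxins. They were read from the GRCh38 genome with the GENCODE release 29 annotation, and each lies within 1 coding exon. Capitals mark the codons of the signal, which are residues 678 to 680 of 680 in GNPAT, 37 to 45 of 658 in AGPS and 296 to 299 of 299 in PEX19.
GNPAT, chr1:231277513-231277539, plus strand: ataggaaaaccagccactGCAAAACTT
AGPS, chr2:177392898-177392924, plus strand: AGGCTGCGGGTTCTCTCTGGCCATCTG
PEX19, chr1:160279554-160279580, minus strand: gccagtggtgaacagTGTCTGATCATG

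Total counts ranged from 15405102 to 17273464 per library. Across all genes tested, the log2 CPM of libraries of the same condition correlated with r between 0.986 and 0.992, and that of libraries of different conditions with r between 0.959 and 0.972. Erastin-R replicate 1 stood apart from erastin-R replicates 2 and 3 (r = 0.986 with each, against 0.992 between those 2), so several of the results below are also given without it. All 4 markers of the line were present, with VIM (vimentin) at 1274 to 1581 CPM, while ESR1 and PGR, the hormone receptors that TNBC lacks, had at most 12 and 2 counts. ERBB2, also expected to be low, was measured at 59.8 to 96.9 CPM. Marker levels moved with the conditions, as the keratin KRT18 fell by 1.12 on the log2 scale in erastin-R cells (edgeR adjusted p = 9.48e-08), and in RSL3-R cells EGFR rose by 0.78 (edgeR adjusted p = 5.07e-07) and CDH1, expected to be low and at 6 to 59 counts, by 1.58 (edgeR adjusted p = 0.00130). The summed level of 8 leukocyte, endothelial and fibroblast markers was 17.3 to 19.1 CPM in vehicle-treated, 10.1 to 12.0 CPM in erastin-R cells and 24.0 to 25.8 CPM in RSL3-R cells. It came mostly from COL1A1 and PECAM1, and PECAM1 fell by 2.47 in erastin-R cells (edgeR adjusted p = 8.28e-08). PTPRC, at 3 to 11 counts in vehicle-treated and erastin-R cells and 19 to 24 in RSL3-R cells, rose by 1.67 in RSL3-R cells (edgeR adjusted p = 0.00818). ITGAM had at most 11 counts in any library and the other 4 markers at most 4. The part of these markers in the results was not tested. In these bulk samples, fewer cells with a transcript and less of it per cell cannot be told apart.

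In vehicle-treated cells the 8 genes spanned a wide range of FPKM, the deposited level per kilobase of exon. GNPAT was the highest of them at 22.3 ± 1.02 FPKM (SD, n = 3), followed by FAR1 at 19.3 ± 1.72, AGPS at 16.4 ± 0.457 and PEX19 at 15.3 ± 0.680 FPKM. TMEM189 at 6.92 ± 0.116, PEX3 at 6.06 ± 0.344 and PEX10 at 3.09 ± 0.343 FPKM formed a lower group. FAR2 was far below the others at 0.366 ± 0.142 FPKM, so that of both fatty alcohol-forming reductases FAR1 was the abundant one. No 2 neighbours in this order overlapped among the 3 vehicle libraries, with the narrowest gap between AGPS and PEX19.

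**Figure D1:**
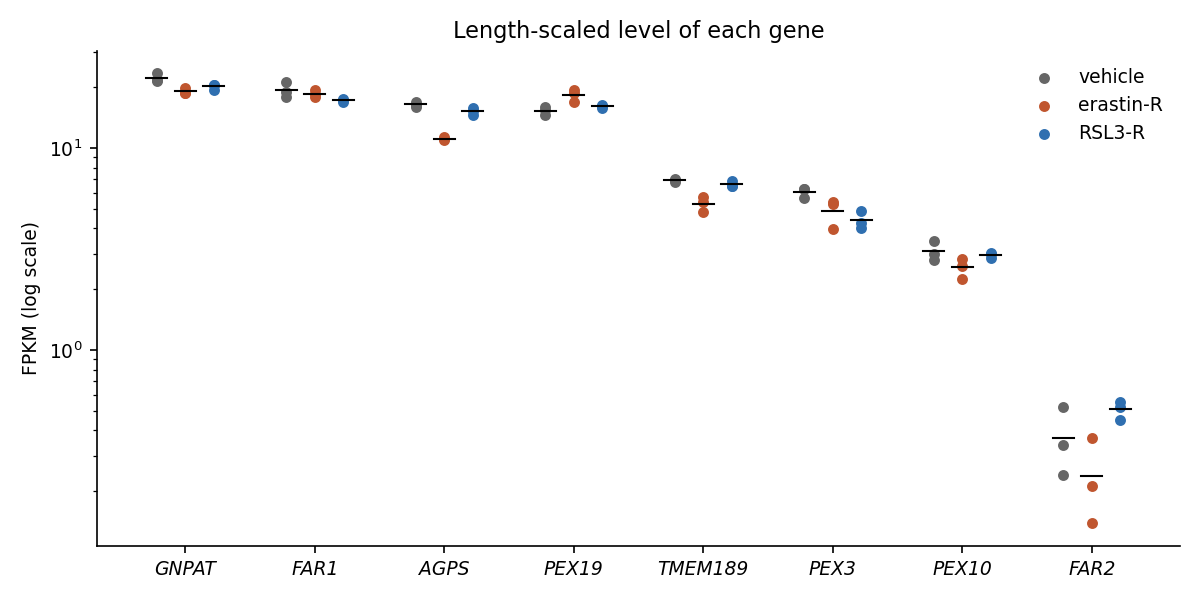
FPKM of the 8 genes in each library on a log axis, with points for single libraries coloured by condition and a short line at each condition's mean. FAR2 lies below 1 FPKM in all 9 libraries, and the other 7 genes lie between 2.25 and 23.4 FPKM.

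In erastin-R cells 3 of the 5 enzymes passed the test as lower than in vehicle-treated cells, beside 26.8% of all genes tested. AGPS fell to 0.677 times its vehicle level, TMEM189 to 0.769 times and GNPAT to 0.859 times, while FAR1 did not pass the test and PEX19 rose to 1.20 times. In RSL3-R cells PEX3 was the only one of the 8 genes that passed the test against vehicle, beside 48.7% of all genes tested. AGPS and TMEM189 were higher in RSL3-R than in erastin-R cells. Below, the level of a gene in a library is its CPM, the count scaled to the library size after TMM normalization, and a gene is called changed at an adjusted p under 0.05 from edgeR's quasi-likelihood test with Benjamini-Hochberg adjustment over all 16188 genes.

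GNPAT (ENSG00000116906, chromosome 1, 231241207 to 231277973, plus strand) encodes the acyltransferase of the first step. Its level was 71.9, 71.1 and 77.0 CPM in vehicle replicates 1 to 3, 61.9, 62.0 and 65.3 CPM in erastin-R and 67.6, 63.7 and 67.4 CPM in RSL3-R replicates. Every treated library of both kinds lay below the lowest vehicle library. On the log2 scale, GNPAT fell by 0.22 in the erastin-R libraries (standard error 0.06, edgeR adjusted p = 0.0104). For the RSL3-R libraries the difference was -0.15 and did not pass (edgeR adjusted p = 0.0706), with a 95% interval from -0.29 to -0.01. Leaving out erastin-R replicate 1, which changes the spread that the model shares over all libraries, brought the RSL3-R difference to an edgeR adjusted p of 0.0225 at the same log2 fold change of -0.15. Of 15 alternative fits for this difference, 2 passed, with log2 fold changes from -0.17 to -0.11 over all of them.

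AGPS (ENSG00000018510, chromosome 2, 177392644 to 177559299, plus strand) encodes the synthase that forms the ether bond. It had 148, 145 and 153 CPM in the vehicle libraries, 101, 103 and 98.9 CPM in the erastin-R libraries and 142, 132 and 138 CPM in the RSL3-R libraries. The erastin-R libraries were all lower than any other library by a wide gap, and the RSL3-R libraries lay just under the vehicle libraries without overlap. The difference of erastin-R from vehicle for AGPS was -0.56 in log2 units (standard error 0.06, edgeR adjusted p = 2.03e-06), the smallest adjusted p among the 8 genes in this comparison. The mean went from 149 ± 3.86 to 101 ± 1.96 CPM (SD, n = 3). The RSL3-R difference was -0.12 (edgeR adjusted p = 0.104, 95% interval -0.24 to 0.005). It passed without erastin-R replicate 1 (-0.12, edgeR adjusted p = 0.0274). Only 2 of 15 alternative fits passed, with log2 fold changes from -0.14 to -0.07 over all of them.

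FAR1 (ENSG00000197601, chromosome 11, 13668670 to 13732346, plus strand) encodes the reductase known as the main source of the fatty alcohol. It was measured at 135, 143 and 160 CPM in vehicle-treated, 141, 147 and 135 CPM in erastin-R and 132, 128 and 130 CPM in RSL3-R cells. The erastin-R libraries overlapped the vehicle libraries, whereas the RSL3-R libraries were all below both other conditions. Neither difference from vehicle passed. For erastin-R the log2 fold change of FAR1 was -0.05 (edgeR adjusted p = 0.546, 95% interval -0.20 to 0.09). For RSL3-R it was -0.17 (edgeR adjusted p = 0.0561, 95% interval -0.31 to -0.02). It passed without erastin-R replicate 1 (edgeR adjusted p = 0.00771) and also without vehicle replicate 1, the lowest of the vehicle libraries (log2 fold change -0.22, edgeR adjusted p = 0.0286). Among 15 alternative fits 3 passed, with log2 fold changes from -0.22 to -0.10 over all of them.

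FAR2 (ENSG00000064763, chromosome 12, 29149103 to 29340980, plus strand) encodes the second reductase of this kind. Its counts were only 22, 30 and 46 in the vehicle libraries, 34, 12 and 19 in the erastin-R libraries and 47, 46 and 42 in the RSL3-R libraries. These correspond to 1.31, 1.85 and 2.84 CPM, to 2.02, 0.763 and 1.15 CPM and to 3.03, 2.86 and 2.45 CPM. The vehicle libraries were widely spread and overlapped both treated conditions, and erastin-R replicate 1 lay above erastin-R replicates 2 and 3. Relative to vehicle, the log2 fold change of FAR2 was -0.59 for erastin-R (standard error 0.35, edgeR adjusted p = 0.175, 95% interval -1.35 to 0.17) and 0.47 for RSL3-R (standard error 0.32, edgeR adjusted p = 0.245, 95% interval -0.22 to 1.17). Without erastin-R replicate 1 the erastin-R difference was -1.05 and passed (edgeR adjusted p = 0.0136), so whether FAR2 was called depended on leaving out that library.

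TMEM189 (ENSG00000240849, chromosome 20, 50118254 to 50153734, minus strand) encodes the desaturase that makes the vinyl ether bond, the step that turns a plasmanyl lipid into a plasmalogen. The vehicle libraries had 56.1, 54.4 and 55.8 CPM, the erastin-R libraries 39.1, 43.3 and 45.5 CPM and the RSL3-R libraries 54.8, 51.8 and 51.8 CPM. Erastin-R libraries were lower than all others, and RSL3-R replicate 1 overlapped the vehicle range. With erastin, TMEM189 fell by 0.38 in log2 units (standard error 0.07, edgeR adjusted p = 5.37e-04). With RSL3 the difference was -0.07 (edgeR adjusted p = 0.448, 95% interval -0.22 to 0.08). A read-through gene into UBE2V1 shares 8.71% of the exon bases of TMEM189. It had 0 counts in every library, so adding it could not change the values. A count of 0 does not show that its transcript was absent, since the genes share exons.

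**Figure D2:**
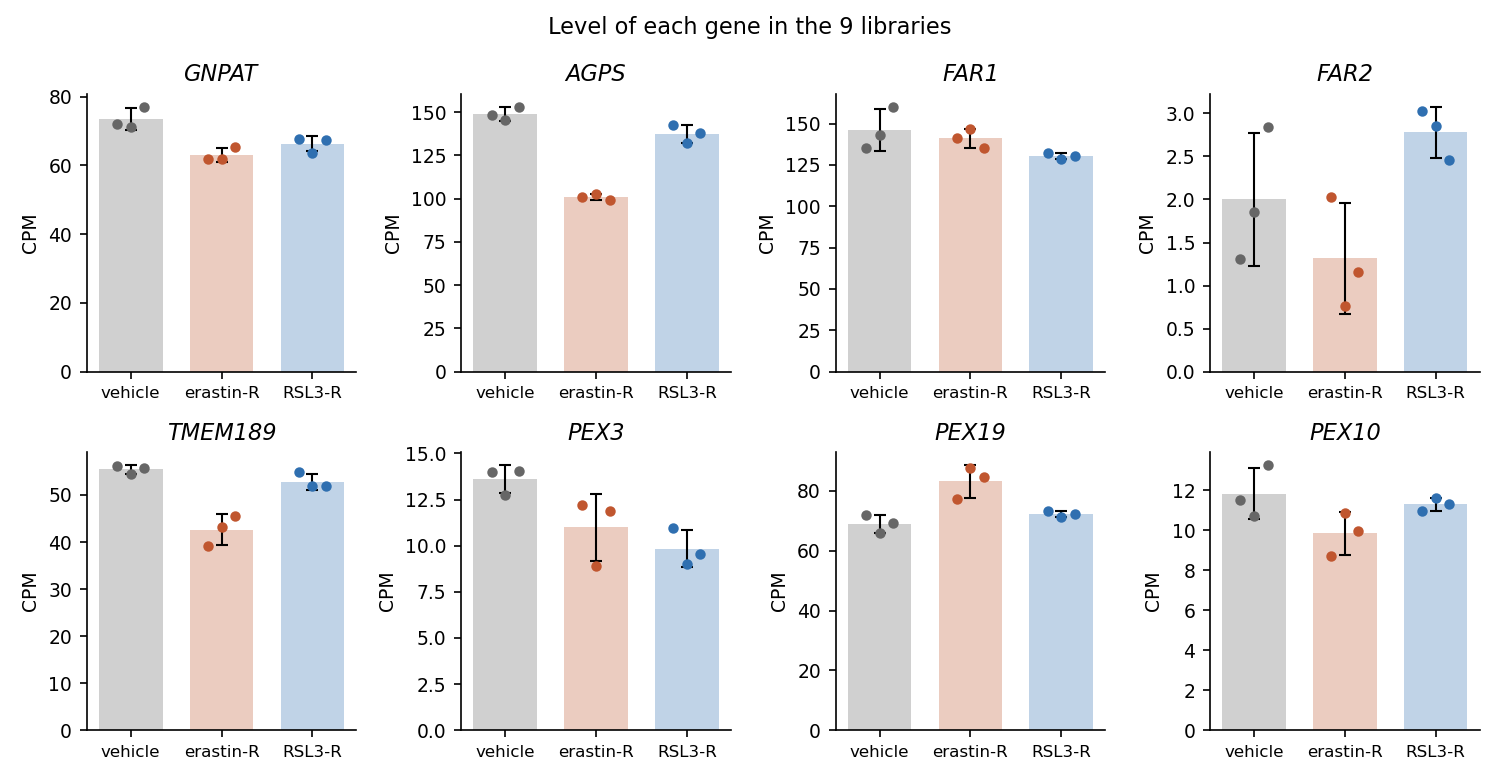
CPM of each of the 8 genes by condition, 1 panel a gene with its own axis starting at 0, points for the 3 libraries, a bar for the mean and a whisker of 1 SD each way. AGPS, GNPAT and TMEM189 are lower and PEX19 is higher in all 3 erastin-R libraries than in all 3 vehicle libraries, and the FAR2 vehicle points overlap those of both other conditions.

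PEX3 (ENSG00000034693, chromosome 6, 143450807 to 143490010, plus strand) encodes the membrane anchor to which PEX19 docks. It had 14.0, 12.7 and 14.1 CPM in vehicle-treated, 12.2, 8.91 and 11.8 CPM in erastin-R and 11.0, 9.01 and 9.53 CPM in RSL3-R cells. All treated libraries lay below the vehicle libraries, with erastin-R replicate 1 the nearest to them. After RSL3, PEX3 fell by 0.47 in log2 units (standard error 0.14, edgeR adjusted p = 0.0108), to 0.723 times the vehicle level. That call was lost without RSL3-R replicate 3 (log2 fold change -0.41, edgeR adjusted p = 0.0587). For erastin-R the difference was -0.31 and missed the threshold (edgeR adjusted p = 0.0683, 95% interval -0.59 to -0.02). It passed without erastin-R replicate 1 (-0.39, edgeR adjusted p = 0.0156) but was smaller without erastin-R replicate 2 (-0.18, edgeR adjusted p = 0.276). Of 15 alternative fits, 2 passed.

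PEX19 (ENSG00000162735, chromosome 1, 160276812 to 160286348, minus strand), the carrier whose farnesylation box is shown above, went the other way. It had 72.0, 65.8 and 69.2 CPM in the vehicle libraries, 77.2, 87.7 and 84.6 CPM in the erastin-R libraries and 73.2, 71.2 and 72.4 CPM in the RSL3-R libraries. Every erastin-R library was above every other library. Its rise in erastin-R cells was 0.27 in log2 units (standard error 0.07, edgeR adjusted p = 0.00382), and the RSL3-R difference was 0.07 (edgeR adjusted p = 0.438, 95% interval -0.08 to 0.21). A read-through gene on the same strand, AL139011.2, shares 16.3% of its exon bases and had at most 3 counts.

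PEX10 (ENSG00000157911, chromosome 1, 2403964 to 2413797, minus strand) encodes a subunit of the ubiquitin ligase that recycles the import receptors. Its level was 11.5, 10.7 and 13.3 CPM in vehicle-treated, 8.70, 10.9 and 9.97 CPM in erastin-R and 11.0, 11.6 and 11.3 CPM in RSL3-R cells. Both treated conditions overlapped the vehicle libraries. The log2 fold changes from vehicle were -0.27 for erastin-R (edgeR adjusted p = 0.0843, 95% interval -0.53 to -0.0002) and -0.07 for RSL3-R (edgeR adjusted p = 0.685, 95% interval -0.33 to 0.20). The values of PEX10 are uncertain, since 39.1% of its exon bases are also exons of RER1 on the opposite strand, which had 882 to 1362 counts, and whether the counting used strand is not given in the sources used here. Of the other members, GNPAT and FAR1 share no exon bases with another gene, and AGPS, FAR2 and PEX3 share at most 2.45%, 3.25% and 7.97% with any 1 gene. FAR2, with 12 to 47 counts, shares 3.2% with ERGIC2 on the opposite strand, which had 875 to 1073 counts. The values of FAR2 are thus uncertain in the same way.

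Counted together, 4 of the 8 genes were called changed in erastin-R cells, 3 lower and 1 higher. Of all genes tested, 54.0% were called, 26.8% lower and 27.1% higher, so the number of members called was near the background and is not a result about them as a group. Their median log2 fold change was -0.29, against -0.004 over all genes. The libraries of both conditions did not overlap for 5 of the 8, AGPS, GNPAT, TMEM189, PEX3 and PEX19, beside 57.9% of all genes. Without erastin-R replicate 1, 6 of the 8 were called, with FAR2 and PEX3 added, beside 9957 of 16619 genes. In RSL3-R cells 1 of the 8 was called, PEX3, and it was lower, where 48.7% of all genes were called, 24.9% lower and 23.8% higher. The members' median was -0.09 against 0.005 over all genes, and 4 of the 8 (AGPS, GNPAT, FAR1 and PEX3) did not overlap the vehicle libraries, beside 61.9% of all genes. This count moved to 4 of 8 without erastin-R replicate 1, with AGPS, GNPAT and FAR1 added, beside 9401 of 16619 genes. It was 2 without vehicle replicate 1, beside 6816 of 16650 genes, and 0 without RSL3-R replicate 3, beside 6731 of 16589 genes.

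With a minimum change of 2-fold, the size the study asked for, edgeR called 0 of the 8 genes in either comparison with vehicle, against 13.4% of all genes for erastin-R and 10.1% for RSL3-R. At an unadjusted p under 0.05 and the same fold it was also 0, and DESeq2 and limma likewise called 0 in both. Leaving out erastin-R replicate 1 gave 1, FAR2 in erastin-R cells, beside 2573 of 16619 genes called at 2-fold.

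**Figure D3:**
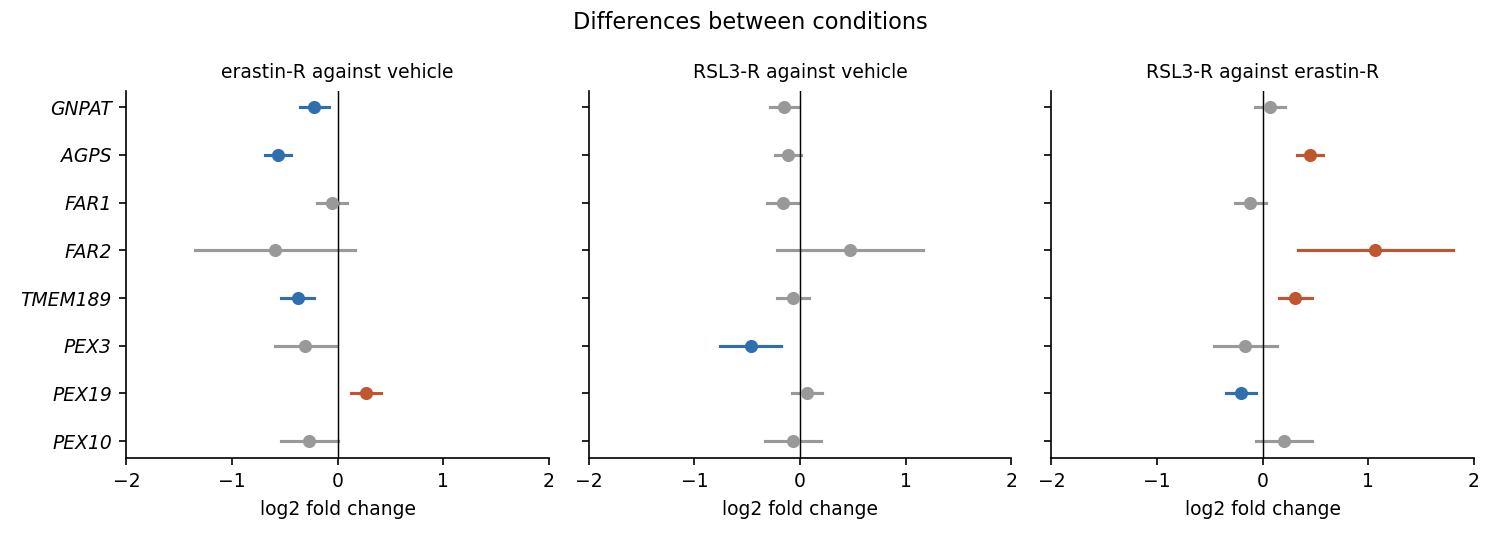
Log2 fold change of the 8 genes in the 3 comparisons, 1 panel a comparison, with lines for the 95% interval and colour (blue lower, orange higher) where the adjusted p from edgeR was under 0.05, grey elsewhere. For erastin-R against vehicle, AGPS, GNPAT and TMEM189 are blue and PEX19 is orange, and FAR2 has the widest line, from -1.35 to 0.17.

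The direct comparison of RSL3-R with erastin-R cells tested whether the survivors of both drugs differed. AGPS was higher in RSL3-R cells by 0.45 on the log2 scale (standard error 0.06, edgeR adjusted p = 2.48e-05) and TMEM189 by 0.31 (standard error 0.07, edgeR adjusted p = 0.00290). FAR2 was 1.07 higher (standard error 0.34, edgeR adjusted p = 0.0189), and its 3 RSL3-R libraries all lay above the 3 erastin-R libraries. PEX19 was lower, with a log2 fold change of -0.20 (standard error 0.07, edgeR adjusted p = 0.0224). The differences of AGPS and TMEM189 passed under every alternative but the 2-fold minimum, whereas those of FAR2 and PEX19 did not pass without erastin-R replicate 2, erastin-R replicate 3, RSL3-R replicate 1 or RSL3-R replicate 2, and PEX19 also not without RSL3-R replicate 3.

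GNPAT did not differ detectably between the survivors (log2 fold change 0.07, edgeR adjusted p = 0.384, 95% interval -0.07 to 0.21). The values were -0.11 for FAR1 (95% interval -0.26 to 0.03), -0.16 for PEX3 (95% interval -0.46 to 0.13) and 0.20 for PEX10 (95% interval -0.07 to 0.47), none past the threshold. In all, 4 of 8 were called, 3 higher and 1 lower, beside 49.2% of all genes, of which 22.3% were higher and 26.9% lower, again near the background. The conditions did not overlap for 6 of the 8 (all but GNPAT and PEX3), against 55.2% of all genes, and 1 of the 8 (FAR2) was called at 2-fold or more, against 10.3%. The members' median was 0.14 and that of all genes -0.02. All 3 comparisons share libraries, since each condition enters 2 of them, so they are not independent of each other.

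Peroxins outside the 8 genes were described from a list of 14, all of which were tested. In erastin-R cells 10 were called, 7 higher and 3 lower. Both import receptors rose. PEX5, which binds C-terminal signals such as that of GNPAT, had 46.4, 44.0 and 42.0 CPM in the vehicle libraries and 65.1, 84.7 and 81.5 CPM in the erastin-R libraries. All erastin-R libraries were above the vehicle libraries, and replicate 1 was the nearest to them. The log2 fold change of PEX5 was 0.80 (standard error 0.09, edgeR adjusted p = 5.89e-06). PEX7, which binds N-terminal signals such as that of AGPS, had 2.62, 3.03 and 4.01 CPM in vehicle-treated and 6.61, 5.28 and 4.56 CPM in erastin-R cells, without overlap, at 44 to 111 counts. It rose by 0.77 (standard error 0.21, edgeR adjusted p = 0.00589). In the same cells AGPS and GNPAT, whose signals these receptors read, were lower, as given above.

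Among the others that rose were PEX14 of the docking complex by 0.53, PEX2 of the ubiquitin ligase by 0.28 and PEX6, an ATPase that helps to pull the receptors back out, by 0.61. PEX14 shares 6.81% of its exon bases with DFFA on the opposite strand, which had 797 to 1140 counts. The values of PEX14 are thus uncertain in the same way as those of PEX10. PEX26, which anchors that ATPase at the membrane, fell by 0.32 on the log2 scale, and PEX11A, which acts in the elongation and division of peroxisomes, fell by 0.56. The 14 peroxins had a median log2 fold change of 0.41, against -0.29 for the 8 genes and -0.004 over all genes, with 54.0% of all genes called. Leaving out erastin-R replicate 1 left 7 higher and 3 lower, beside 4917 higher and 5040 lower of 16619 genes.

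In RSL3-R cells 3 of the 14 rose compared with vehicle-treated cells, among them PEX7 by 0.62 (standard error 0.21, edgeR adjusted p = 0.0242). PEX16, which helps to bring membrane proteins to the peroxisome, fell by 0.38 (edgeR adjusted p = 0.0197). This made 4 of 14 beside 48.7% of all genes. The count was 2 without vehicle replicate 1, beside 6816 of 16650 genes, and 2 without vehicle replicate 2, beside 6637 of 16654 genes. Compared directly with erastin-R cells, PEX5 was lower in RSL3-R cells (log2 fold change -0.64, edgeR adjusted p = 5.71e-05), PEX6 (-0.58) and PEX14 (-0.42) were lower and PEX26 was higher (0.25). PEX7 was not called in that comparison.

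**Figure D4:**
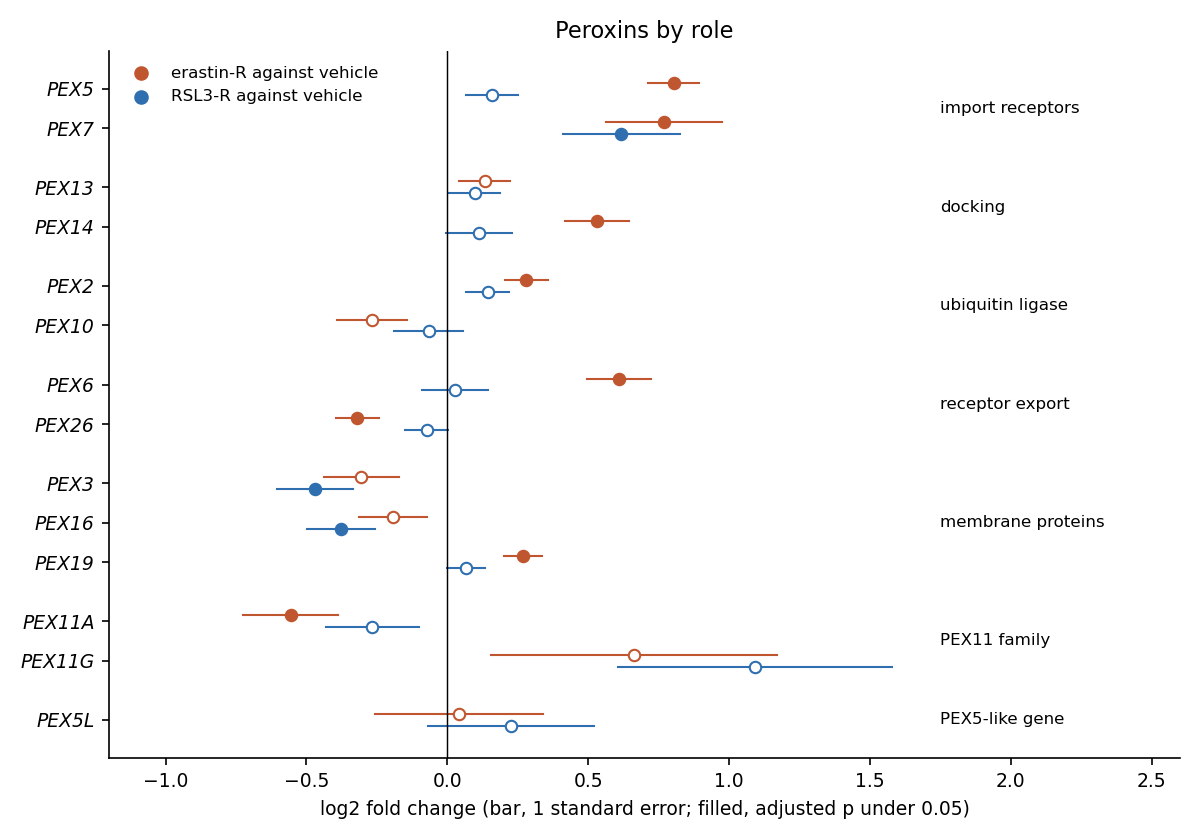
Log2 fold change from vehicle of 14 peroxins, among them PEX3, PEX10 and PEX19, ordered by role, with bars of 1 standard error and filled points where the adjusted p from edgeR was under 0.05. In erastin-R cells the receptors PEX5 (0.80) and PEX7 (0.77) are filled to the right of 0 and PEX11A (-0.56) to the left.

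The later steps and the breakdown of ether lipids were described from a list of 10 genes, of which 9 were tested. AGMO, which cleaves the ether bond of some ether lipids, had 0 counts in every library. In erastin-R cells 3 rose and 1 fell, 4 of 9 beside 54.0% of all genes (27.1% higher and 26.8% lower), which is near the background. DHRS7B, the reductase that acts right after AGPS, fell from 17.3 ± 1.24 to 11.2 ± 0.655 CPM (SD, n = 3), a difference of -0.63 in log2 units (edgeR adjusted p = 2.61e-04). PLPP2, a lipid phosphate phosphatase, rose from 23.2 ± 1.37 to 38.7 ± 4.08 CPM (log2 fold change 0.73, edgeR adjusted p = 1.44e-05). SELENOI, which attaches the ethanolamine head group, rose by 0.22. TMEM86B, which degrades lysoplasmalogen, rose by 0.65 at 24 to 51 counts in these 2 conditions, but 77.9% of its exon bases are shared with the transcript AC010327.5 and its value is uncertain. The count of 4 was 2 without erastin-R replicate 2, beside 7889 of 16635 genes.

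In RSL3-R cells 2 of the 9 rose and 4 fell, beside 23.8% of all genes higher and 24.9% lower. PLPP2 rose by 0.51 (edgeR adjusted p = 4.14e-04), and TMEM86A, a relative of TMEM86B, rose by 1.89 (standard error 0.55, edgeR adjusted p = 0.0114) from 2, 12 and 4 counts in vehicle-treated to 27, 18 and 22 counts in RSL3-R cells. The libraries did not overlap for TMEM86A, at counts too low for a precise fold. PLPP3 fell by 0.48, CHPT1, which attaches the choline head group, by 0.45, SELENOI by 0.35 and DHRS7B by 0.31. In RSL3-R cells CHPT1, SELENOI and PLPP3 were also lower than in erastin-R cells, with log2 fold changes of -0.57, -0.57 and -0.73, and DHRS7B was higher by 0.32, all called by edgeR. DHRS7B thus was lowest in erastin-R, intermediate in RSL3-R and highest in vehicle-treated cells, and each of these differences passed.

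Over the 9 libraries the log2 CPM of AGPS went with that of TMEM189 (Pearson r = 0.94) and GNPAT (r = 0.81) and against that of PEX19 (r = -0.87), and it was hardly related to that of FAR1 (r = 0.04). These are descriptions over libraries that share conditions and a scaling by depth. By the rule for naming genes of like pattern, which picks the member with the largest change from vehicle, DPM1 (r = 0.97) and C1QL3 (r = 0.95) were among the 3 protein-coding genes most like FAR2, of 12970 compared, although the low counts of FAR2 make its pattern imprecise. AGPS was added after its values were seen. The genes most like it were ZNF268 (r = 0.99), LAPTM5 (r = 0.99) and ZNF33B (r = 0.99).

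Promoter windows from 250 bases before to 50 after the start of transcription, credited to RefSeq on GRCh38.p14, were found for 7 of the 8 genes, 10 windows in all, and TMEM189 was the one without. They were searched on both strands for 5 words, which did not overlap where found. These were the PPAR element (AGGTCA, any base, AGGTCA), which 0.0228% of all 35116 windows hold, the antioxidant element TGACNNNGC (13.3%), the CEBP-ATF element TGATGNAA (3.62%), the CRE TGACGTCA (1.85%) and the NRF1 element (GCGCA, any base, GCGC, 5.78%). One of both PEX10 windows held 2 antioxidant words, GNPAT held 1 NRF1 word, and the windows of AGPS, FAR1, FAR2, PEX3 and PEX19 held none of the 5. The windows of AGPS and GNPAT, whose products act in successive steps and which both fell in erastin-R cells, are shown 5′ to 3′, with capitals for the NRF1 word in GNPAT.
AGPS, chr2:177392523-177392822, plus strand: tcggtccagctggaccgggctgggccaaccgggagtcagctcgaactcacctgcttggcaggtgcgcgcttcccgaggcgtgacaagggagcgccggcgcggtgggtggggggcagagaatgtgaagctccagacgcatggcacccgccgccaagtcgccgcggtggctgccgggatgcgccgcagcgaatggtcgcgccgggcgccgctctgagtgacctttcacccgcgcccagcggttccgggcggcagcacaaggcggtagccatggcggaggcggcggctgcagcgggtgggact
GNPAT, chr1:231240962-231241261, plus strand: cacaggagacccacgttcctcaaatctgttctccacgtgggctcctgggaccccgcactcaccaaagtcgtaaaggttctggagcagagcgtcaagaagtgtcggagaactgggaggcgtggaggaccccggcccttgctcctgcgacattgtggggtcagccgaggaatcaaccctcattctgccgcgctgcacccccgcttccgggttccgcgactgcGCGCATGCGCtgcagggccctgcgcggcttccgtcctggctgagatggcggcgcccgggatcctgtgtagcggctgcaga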

How the data were processed

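The authors sequenced poly-A selected RNA in 9 libraries and deposited, for each, the raw read count of every gene from uniquely mapped exonic reads. They also deposited an FPKM per gene, derived from these counts and called RPKM in their methods. The submitters' processing notes name HISAT2 2.0.5 and featureCounts 1.5.0-p3. The members' coordinates matched GENCODE release 29 (Ensembl release 94) on GRCh38. The sample labels gave each library's condition and number, and the study the names erastin-R and RSL3-R.

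Differences were tested on the counts with edgeR 4.0.16 in R 4.3.3 (filterByExpr, TMM and the quasi-likelihood test, 1 model of all 9 libraries, no covariate), with Benjamini-Hochberg adjustment over 16188 genes. The square root of edgeR's common dispersion, an estimate over all genes of the coefficient of variation beyond counting noise, was 8.56%. FPKM was used only to compare levels between genes. Correlations used log2 CPM with a prior count of 3. Alternatives were DESeq2 1.42.0, its size factors in edgeR, quantile normalization with limma 3.58.1, no filter on low counts, a block for the replicate number, a fit of just the 2 conditions at hand, leaving out each library, a minimum change of 2-fold, and TMEM189 with its read-through gene. The last of these added 0 counts, so it could not change a value. The tests were tried on simulated data. Python 3.11.15 with matplotlib 3.10.9 drew the figures.

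The members, lists and tests were chosen with earlier results of these data known. The genes named are the 8 members, the genes of each other list that were called and changed at least 2-fold from vehicle, and the 2 called genes of each list with the largest change in each comparison. Genes named beyond these, among them further called peroxins and later enzymes, were added after their values were seen. Several genes are not reported here and stay within the counts over their lists. Depth limits the precision of FAR2, with 12 to 47 counts.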

Additional observations from a re-analysis of the deposited data

How the results depend on the processing

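No member changed sign in a call. Of the comparisons of single members with their alternatives, the 2-fold minimum not among them, 340 stayed on the same side of the threshold. Those of TMEM189 with its read-through gene are among the 340, although they could not differ. Another 11 gained and 12 lost a call. Small differences without a call could change sign, as FAR1 did in erastin-R against vehicle-treated cells (-0.05, but 0.02 without vehicle replicate 3). AGPS, GNPAT, TMEM189 and PEX19 were called in erastin-R against vehicle-treated cells under all alternatives but the 2-fold minimum, with adjusted p up to 0.0433 for GNPAT and 0.0288 for PEX19. Of the 8 members, 4 were called there, and 0 with a minimum change of 2-fold. Leaving out each library gave 4 to 6. In RSL3-R against vehicle-treated cells 1 was called, 4 with only the 2 conditions compared and 0 at 2-fold, and leaving out each library gave 0 to 4. With only those 2 conditions, 9190 of 15701 genes were called. In RSL3-R against erastin-R cells 4 were called and 1 at 2-fold, and leaving out each library gave 2 to 4. There quantile normalization with limma added GNPAT (log2 fold change 0.17, adjusted p = 0.0382) and lost PEX19 (-0.11, adjusted p = 0.206), which a fit of only the 2 conditions also lost (-0.16, adjusted p = 0.0872). The causes were not tested. Each fit without a library left 2 in its condition, which shared the spread of the others.

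Equal replicate numbers did not pair the libraries. After subtracting each condition's mean, libraries with the same number correlated with r from -0.09 to 0.05 (mean -0.005, against 0.003 for other numbers). With the replicate number as a block, 5 members were called in erastin-R against vehicle-treated cells, with PEX3 added (log2 fold change -0.31, adjusted p = 0.0472), and 1 and 4 in the other comparisons. Counts over the other lists under these alternatives were chosen after seeing the data. Among them, peroxins called in RSL3-R against vehicle-treated cells ranged from 2 to 5 over the left-out libraries, and later ether lipid genes in erastin-R against vehicle-treated cells from 2 to 6. The depth did not allow a precise fold for FAR2, whose difference between RSL3-R and erastin-R cells ranged from 0.80 to 1.52 on the log2 scale.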

Other observations

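Genes of peroxisomal fatty acid transport and oxidation, the other large task of the organelle, were described from a list of 20, of which 19 were tested. In erastin-R cells 7 rose and 4 fell, beside 54.0% of all genes called. ACOX2, the oxidase of bile acid intermediates and branched fatty acids, fell by 1.21 in log2 units (standard error 0.22, edgeR adjusted p = 3.64e-04), from 7.46 ± 1.90 to 3.23 ± 0.422 CPM (SD, n = 3). DECR2, a reductase for unsaturated fatty acids, rose by 0.76, with 14.1% of its exon bases shared with NME4. In RSL3-R cells 1 rose and 7 fell, beside 48.7% of all genes called. ACOX2 fell by 1.62 (standard error 0.23, edgeR adjusted p = 4.86e-05) to 2.42 ± 0.592 CPM, and PECR, an enoyl reductase, fell by 0.70. PECR shares 4.31% of its exon bases with MREG on the same strand, which had 71 to 166 counts. Without RSL3-R replicate 1 the count was 5, all lower, beside 6729 of 16627 genes called, 3126 of them lower.

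Compared directly, 9 of the 19 were called between RSL3-R and erastin-R cells, each of them lower in RSL3-R cells, where 26.9% of all genes were lower and 22.3% higher. The list's median log2 fold change was -0.33. ECI2, an isomerase for unsaturated fatty acids, was 0.90 lower on the log2 scale (standard error 0.08, edgeR adjusted p = 1.14e-06), with 43.5 ± 1.82 CPM in vehicle-treated, 59.4 ± 3.23 CPM in erastin-R and 31.9 ± 2.82 CPM in RSL3-R cells (SD, n = 3). Its exons share 27.1% of their bases with C6orf201 on the opposite strand, which had 4 to 34 counts. Without erastin-R replicate 1, 11 were lower and 4 higher, beside 4989 lower and 4503 higher of 16619 genes. Of 4 genes of peroxisome division, which mitochondria share, 2 were called in erastin-R cells, beside 54.0% of all genes. Against vehicle, 3 of the 4 were called in RSL3-R cells, beside 48.7% of all genes. GDAP1 fell by 1.28 in erastin-R cells (edgeR adjusted p = 6.12e-05) and by 0.98 in RSL3-R cells (edgeR adjusted p = 5.28e-04). MFF rose by 0.79 in erastin-R and by 0.34 in RSL3-R cells. FIS1 fell by 0.25 in RSL3-R cells.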
